A study of Mus musculus with 24 samples.

Results

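mir-22 is a single entry of the deposited miRNA table, and it was taken by its name as 1 of 510 listed miRNAs, of which 364 had at least 1 count in the 24 libraries. Small RNA was sequenced from mammary tissue of female PyMT mice and of female FVB mice, with 3 libraries of each kind at weeks 6, 8, 10 and 12 of age. In the MMTV-PyMT transgene, the mouse mammary tumor virus promoter drives the polyoma middle T antigen mainly in mammary epithelium. PyMT mice were FVB animals heterozygous for this transgene. Their tissue was staged as hyperplasia at week 6, adenoma with mammary intraepithelial neoplasia (adenoma/MIN) at week 8, early carcinoma at week 10 and late carcinoma at week 12, and all 4 stages are called tumor here. FVB mice without the transgene gave the normal mammary glands. All libraries came from whole tissue, and by the methods, normal gland cells were still present in the 2 earlier stages. In such bulk samples, fewer cells of a type and less RNA per cell cannot be told apart.

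A miRNA is cut from a hairpin into a duplex, and the strand that is loaded into Argonaute represses mRNAs that pair with its seed, the bases near its 5′ end. miR-22 is abundant in heart, skeletal muscle and many other tissues. In mammary cells it is known from earlier work as a repressor of TET enzymes, which oxidize methylated cytosine, and through them of the miR-200 genes that hold epithelial cells in their state. Other work reports Esr1, the estrogen receptor, among its targets, and places miR-22 among the miRNAs that respond to p53. Both a growth-promoting and a tumor-suppressing role have been ascribed to it in breast cancer.

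The hairpin lies on chromosome 11 at chr11:75277218-75277312 of mm9, on the plus strand. It is inside exon 2 of 2210403K04Rik, a noncoding host gene at chr11:75275041-75280178 that RefSeq names Mir22hg, and also inside exon 2 of a transcript of the overlapping gene Tlcd2. The mm9 genome is identical to the RefSeq hairpin of GRCm38.p6 in 95 of 95 bases. The hairpin is shown first, 5′ to 3′ and with both mature arms in capitals, because the table holds 1 entry named mir-22 and the arms cannot be separated in it. The mature arms follow with their seeds, bases 2 to 8, in capitals.
mmu-mir-22 hairpin: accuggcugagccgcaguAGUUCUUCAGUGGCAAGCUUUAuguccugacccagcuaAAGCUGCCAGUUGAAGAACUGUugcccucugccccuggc
mmu-miR-22-3p: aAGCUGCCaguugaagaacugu
mmu-miR-22-5p: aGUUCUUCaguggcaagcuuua
Among 1679 mature mouse miRNA names in RefSeq, no other name has the seed of either arm. Having a seed of its own is common, at 72.1% of these names. With the shorter seed of bases 2 to 7, no other name matched miR-22-3p and 2 names matched miR-22-5p, and 0 of those 2 are entries of the count table. RefSeq holds 1 hairpin named Mir22.

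Normal libraries held 1626022 to 3931375 counts in total, tumor libraries 1032241 to 2213972, and mir-22 was far above the limit of detection in all of them. It was counted 12944 to 33371 times in the normal and 2761 to 8313 times in the tumor libraries. A floor of 3 counts is equal to 0.763 to 2.91 CPM (counts scaled to the library total) before normalization. As a share of all counts, mir-22 held 0.578% to 1.02% in normal libraries, with a median of 0.756%, and 0.267% to 0.428% in tumor libraries, with a median of 0.309%. The lowest normal share, 0.578%, has a 95% Wilson interval of 0.570% to 0.587%, and the highest tumor share, 0.428%, one of 0.417% to 0.440%. These intervals and the floor cover counting error only, since amplified reads are not independent molecules. Counting error is thus small beside the spread between libraries of a group, and the 3 libraries per group set the precision. Ranked by counts within each library, mir-22 stood between 18 and 29 in normal glands and between 34 and 46 in tumors, so the ranks did not overlap either. Summed over the normal libraries it came between mir-99a (273029 counts) and mir-99b (255348), at 260205 counts. Summed over the tumor libraries it came between mir-30c (75243) and mir-16 (60501), at 65027 counts.

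mir-22 was lower in tumor than in normal tissue at every week. On the scale of TMM-normalized CPM, in which library totals are adjusted for composition, the 3 normal libraries of week 6 had 9438, 6909 and 7773 CPM and the 3 tumor libraries 4144, 4180 and 3883. The lowest normal library of that week lay well above all tumor libraries, which were close to each other. At week 8 the normal libraries had 6921, 5960 and 7431 CPM and the tumor libraries 3142, 3246 and 3641. Again the groups did not overlap. At week 10 the normal values were 6272, 6823 and 7686 CPM against 2600, 2877 and 3672 in tumors. The third tumor library was the highest of its group and still below every normal library. At week 12 the normal libraries were widely spread, at 10813, 5621 and 7191 CPM, while the tumor libraries were at 2717, 3020 and 3080. The first of these normal libraries was the highest of all 24 and the second the lowest of all normal libraries. Over all weeks, the lowest normal library (5621 CPM) was 1.35 times the highest tumor library (4180 CPM), so that no normal library overlapped with a tumor library of any week. Of the 237 miRNAs tested by the methods that follow, 9.7% had every tumor library below every normal library in this way.

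**Figure D1:**
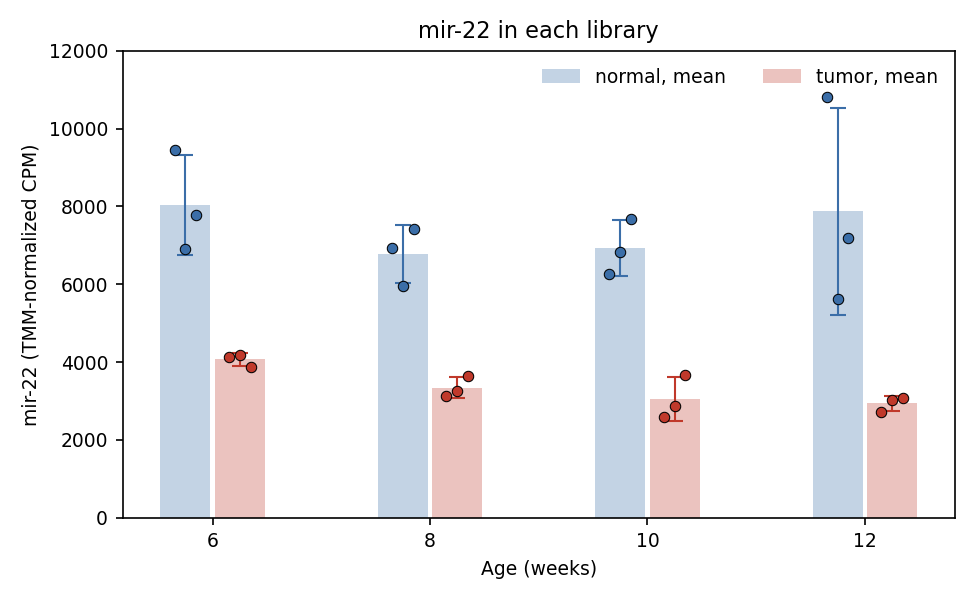
TMM-normalized CPM of mir-22 (y axis, linear from 0) by age in weeks (x axis). Each point is a library, bars are the means of 3 normal (blue) or 3 tumor (red) libraries and error bars are the SD. All tumor points are at or below 4180 CPM and all normal points at or above 5621 CPM.

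The differential expression test of edgeR, run for each week on the 237 miRNAs that its filter kept, called mir-22 lower at all 4 weeks. At week 6 the log2 fold change of tumor over normal was -0.98 (SE 0.15), which is 50.7% of the normal level (edgeR quasi-likelihood test, Benjamini-Hochberg adjusted p = 0.00269). At week 8 it was -1.06 (SE 0.20), or 48.1% (edgeR adjusted p = 0.00739). At week 10 it was -1.20 (SE 0.16), or 43.7% (edgeR adjusted p = 9.86e-04). At week 12 it was -1.44 (SE 0.28), or 36.9% (edgeR adjusted p = 0.00506). A call in this direction, with an adjusted p under 0.05, was made for 29.5%, 13.5%, 27.4% and 21.5% of the tested miRNAs in the order of the weeks. With same-numbered tumor and normal libraries as a replicate block, this share was 28.7% at week 8. mir-22 was 1 of 18 tested miRNAs called lower at all 4 weeks. A tumor group entirely below the normal group at each of the 4 weeks, a count with no test, was found for 10.5% of the tested miRNAs, mir-22 among them. Without the normal library of week 12 with 10813 CPM, the difference of that week was -1.14 (SE 0.23) and remained past the threshold (edgeR adjusted p = 0.00836).

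In a fit of all 24 libraries, the mean of the 4 weekly log2 fold changes was -1.15 (SE 0.10), so that tumors held 45.0% of the normal level (edgeR adjusted p = 2.09e-09). In this comparison 46.8% of the tested miRNAs were called lower and 38.8% higher, so a call alone is common here. The median log2 fold change over all 237 tested miRNAs was -0.15. The 111 called lower had a median of -0.89, and 31 of them fell further than mir-22. Among the 50 most counted miRNAs, where mir-22 took rank 29, 26 were called lower and 9 of these fell further. An exact permutation test of mir-22 alone, with tumor and normal labels exchanged within weeks, gave a mean log2 CPM difference of -1.14 and a two-sided p of 1.25e-05, the smallest that the 160000 relabelings can give. The SD of log2 CPM of mir-22, pooled within groups, was 0.23, rank 36 from the smallest of the 237, against a median of 0.37. This ranking was not matched for abundance. By group, the SD ranged from 0.06 in tumors of week 6 to 0.48 in normal glands of week 12.

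**Figure D2:**
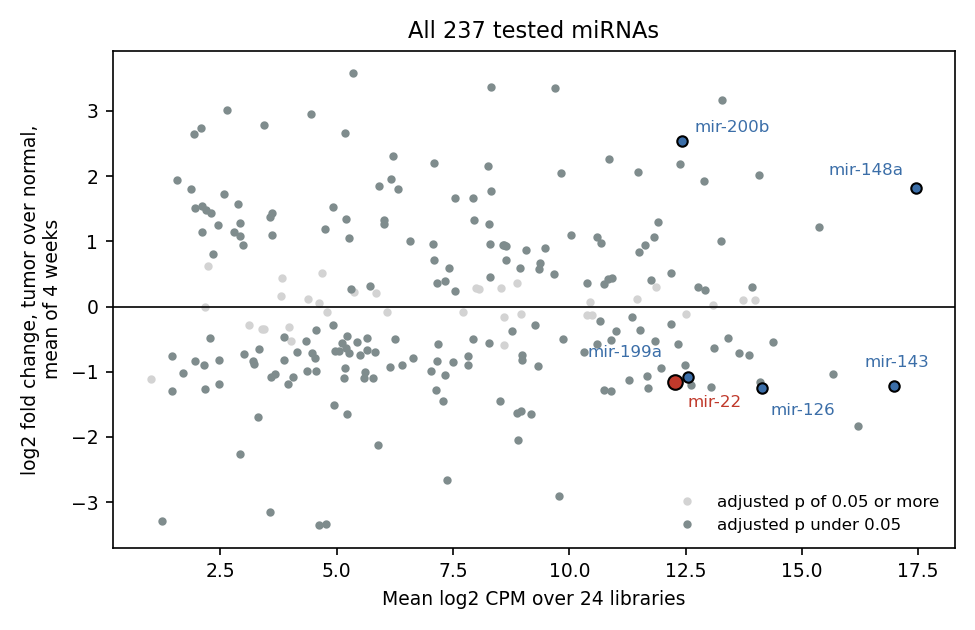
Mean log2 fold change of tumor over normal over the 4 weeks (y axis) against mean log2 CPM over 24 libraries (x axis) for the 237 tested miRNAs, 1 point each. Dark points had an adjusted p under 0.05. mir-22 (red, -1.15) is among the abundant miRNAs below 0, at about the height of mir-199a, mir-126 and mir-143, which are named in blue with mir-200b and mir-148a.

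The 2 sequencing lanes recorded in the labels each held 6 tumor and 6 normal libraries. The mean log2 CPM difference over the weeks was -1.31 in lane 1, where single weeks ranged from -1.99 to -0.96. In lane 2 it was -1.06, and the largest of its weeks was -1.16. The direction was the same within both lanes at every week. At every week, however, 1 of the 2 lanes held only 1 tumor and 1 normal library. The value of -1.99 was such a single pair, at week 12, with the normal library of 10813 CPM. As no tumor library reached the level of any normal library, the direction could not have differed in either lane.

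The weekly fold changes of mir-22 became larger from week 6 to week 12, but the change was not past the threshold. The difference at week 12 minus that at week 6 was -0.44 (SE 0.27) on the log2 scale (edgeR adjusted p = 0.432). Of all tested miRNAs, 0.422% passed this test, a single one, mir-138, named here after its value was seen (-2.08, SE 0.43). A test of any variation of the difference between weeks gave an edgeR adjusted p of 0.938 for mir-22. It called 0 miRNAs (0% of those tested), while 9 had an unadjusted p under 0.05.

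Ordered by mean level, the 4 normal groups came first and the 4 tumor groups last. Week 6 led the normal groups with 8040 ± 1285 CPM, then came week 12 with 7875 ± 2662, week 10 with 6927 ± 713 and week 8 with 6771 ± 747 (SD, n = 3 each). Neighbours in this order overlapped and differed by less than the larger SD, and the order of the normal groups does not follow age. The tumor groups followed, week 6 with 4069 ± 162 CPM, week 8 with 3343 ± 263, week 10 with 3049 ± 556 and week 12 with 2939 ± 195 (SD, n = 3 each). Among tumors the order was that of the stages, from hyperplasia down to late carcinoma. The hyperplasia libraries did not overlap with those of adenoma/MIN, and their means differed by more than the larger SD. The later 3 stages overlapped with their neighbours. The share of tested miRNAs with such an order or such a gap was not computed, so neither is read as a stage trend. Tested over the 4 weeks together, the tumor libraries did not vary past the threshold (edgeR adjusted p = 0.364). This test called 0 miRNAs (0%), while 39 had an unadjusted p under 0.05. For the normal libraries the same test gave an edgeR adjusted p of 0.724 for mir-22, with 13.9% of the tested miRNAs called.

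**Figure D3:**
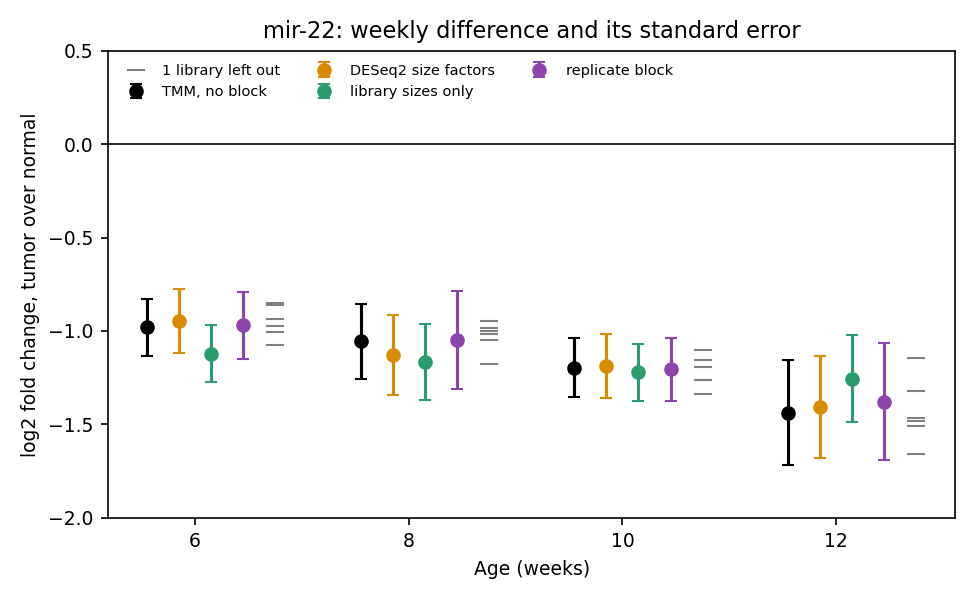
log2 fold change of mir-22, tumor over normal (y axis), by age in weeks (x axis). Points with SE bars are edgeR fits with TMM (-0.98, -1.06, -1.20 and -1.44), with DESeq2 size factors, with library sizes only and with same-numbered libraries as a replicate block, and dashes are fits without 1 library. Every value is below 0.

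The miRNAs with the steadiest ratio to mir-22 were found by the SD, over the 24 libraries, of the log2 ratio of each miRNA to mir-22. This is a description that depends on both the tumor-normal difference and the scatter within groups, and libraries share their depth and composition. Over 236 miRNAs the median of this SD was 0.82 and the largest was 3.49, while the SD of log2 CPM of mir-22 itself was 0.63. The 5 lowest values belonged to mir-100 (0.29), mir-199b (0.32), mir-103 (0.33), mir-199a (0.33) and mir-99a (0.34). One arm of each is shown here, with the seed in capitals, to set them beside miR-22-3p and miR-22-5p and to show that the 5 stand for 3 seeds.
mmu-miR-100-5p: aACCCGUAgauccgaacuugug
mmu-miR-99a-5p: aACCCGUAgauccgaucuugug
mmu-miR-199a-3p: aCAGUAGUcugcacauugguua
mmu-miR-199b-3p: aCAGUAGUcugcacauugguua
mmu-miR-103-3p: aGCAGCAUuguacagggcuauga
None of these seeds is that of an arm of miR-22. miR-100-5p and miR-99a-5p have the same seed, and the 3p arms of mir-199a and mir-199b are identical, so that the counting may have divided their reads between the names.

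mir-100, of the miR-99/100 family that is known to repress mTOR, had 3114 to 4800 CPM in normal and 1307 to 2090 CPM in tumor libraries. Its mean log2 fold change was -1.13 (SE 0.10), beside -1.15 for mir-22. mir-199b ranged from 4443 to 6524 CPM in normal and from 1271 to 2729 CPM in tumor libraries. mir-199a ranged from 7404 to 11982 CPM in normal and from 2576 to 4852 CPM in tumor libraries, and both are known from fibroblasts and other mesenchymal cells. mir-103, widely expressed and linked to insulin sensitivity, had 4036 to 6740 CPM in normal and 2318 to 3518 CPM in tumor libraries. mir-99a had 5659 to 11369 CPM in normal and 3592 to 5175 CPM in tumor libraries. For each of these 5, every tumor library lay below every normal library. This holds for 9.7% of all tested miRNAs, and the choice by a steady ratio to mir-22 favors it. Within the 12 tumor libraries alone, other miRNAs had the steadiest ratio, first mir-320 (SD 0.13), let-7i (0.15) and mir-181b (0.17). Within the 12 normal libraries alone they were mir-181a (0.20), mir-101b (0.20) and mir-27b (0.24). The first 5 over all libraries shared 0 names with the first 5 of either tissue.

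**Figure D4:**
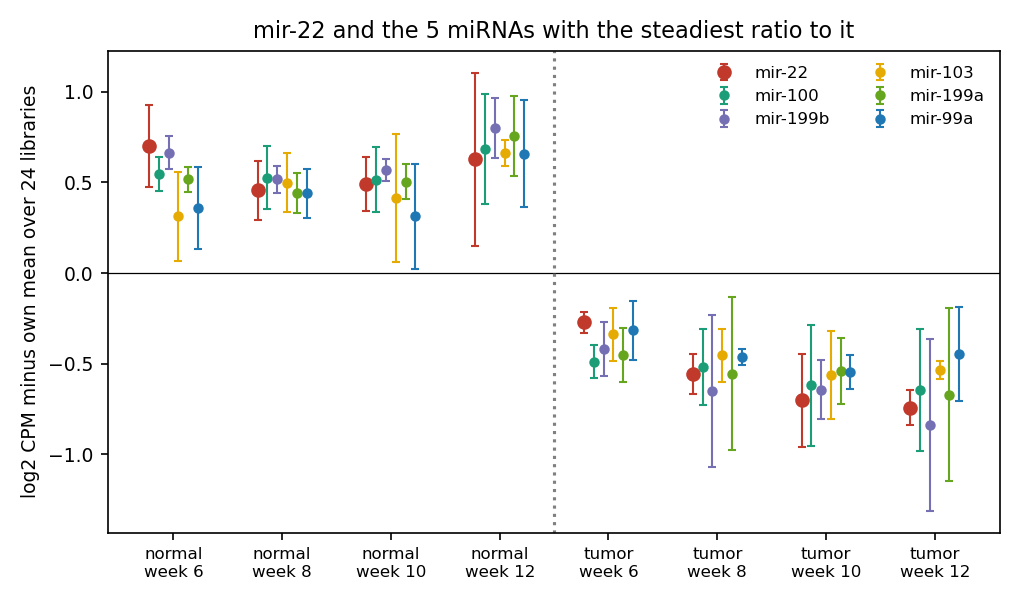
log2 CPM minus each miRNA's own mean over the 24 libraries (y axis) in the 8 groups (x axis), for mir-22 and the 5 miRNAs with the steadiest ratio to it. Points are means of 3 libraries and bars are SD. All 6 are above 0 in the 4 normal groups and below 0 in the 4 tumor groups.

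The miRNAs tied to mir-22 by earlier work were described with the same mean over the 4 weeks, in lists that overlap in part. Calls are common in this comparison, at 46.8% lower and 38.8% higher over all 237 tested miRNAs, and each list's counts are to be read beside these shares. All 5 members of the miR-200 family, repressors of the Zeb factors that keep epithelial cells from mesenchymal change, rose in tumors (edgeR), with a median log2 fold change of 2.15 beside -0.15 over all tested miRNAs. mir-200b, the most abundant of the family, had 1471 to 3259 CPM in normal and 10072 to 17482 CPM in tumor libraries. Its log2 fold change was 2.54 (SE 0.12), and that of mir-141, the smallest rise of the family, was 1.66 (SE 0.12). mir-429 rose by 2.26 (SE 0.13) and mir-200a by 2.04 (SE 0.13) on the same scale. The family thus moved in the direction opposite to mir-22. These members are also 5 of the 7 epithelial markers, and the other two, mir-205 and mir-203, did not rise, with values given with the markers. The part of epithelial content in the rise was not tested.

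Of 9 other miRNAs reported to target Tet2, 8 were tested, 7 fell and 1 rose in tumors (46.8% and 38.8% of all tested), with a median log2 fold change of -0.63, and mir-7b was under the filter. mir-29c fell by 1.29 (SE 0.15) and mir-29b by 1.28 (SE 0.15) on the log2 scale. Both belong to the miR-29 family, which is known to repress collagens and enzymes of DNA methylation and demethylation. mir-7a, known from neural and endocrine cells, rose by 1.35 (SE 0.15), with at most 36.0 CPM in normal glands and 40.3 to 82.3 CPM in tumors. mir-101b had the smallest fall, with a log2 fold change of -0.15 (SE 0.06).

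Among 8 other miRNAs reported to target Esr1, only 4 could be tested. mir-221, mir-222 and mir-18b were listed at 0 in all libraries, and mir-206 was under the filter. The paper names miR-18b among recurrent regulators in PyMT mice, so these listed zeros are not read as absence. Of the 4, 3 rose and 0 fell (38.8% and 46.8% of all tested), with a median of 1.13. The risers were mir-18a (1.95, SE 0.28), mir-19a (1.66, SE 0.16) and mir-19b (0.60, SE 0.13), all of the miR-17-92 cluster that promotes proliferation, while mir-193b had 0.36 (SE 0.17) and was not past the threshold (edgeR adjusted p = 0.0564).

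Of 8 other miRNAs linked with p53, 6 fell and 2 rose (46.8% and 38.8% of all tested), with a median log2 fold change of -0.57. mir-215 fell by 1.70 (SE 0.32), at 5.20 to 53.5 CPM in normal and 2.32 to 8.32 CPM in tumor libraries. mir-145, also a marker of smooth muscle and myoepithelium, fell by 1.61 (SE 0.14). mir-34a, the best known of the p53 targets among miRNAs, rose by 0.72 (SE 0.14), and mir-192 rose by 0.36 (SE 0.10).

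Several markers of other cell types fell in tumors, beside 46.8% of all tested miRNAs. Skeletal muscle miRNAs (mir-1, mir-133a and mir-133b) fell in 3 of 3 tested, and 3 more were under the filter. Their summed level, over the listed markers, ranged from 89.0 to 89335 CPM in normal and from 39.9 to 18075 CPM in tumor libraries, a wide overlap. All 3 blood miRNAs fell, with sums of 7798 to 34558 CPM in normal and 2060 to 13679 CPM in tumor libraries. The first normal libraries of weeks 6 and 12 had the highest blood sums of the normal libraries (34558 and 29332 CPM). They also had the highest muscle sums (87491 and 89335 CPM) and adipocyte sums (25146 and 24889 CPM). These 3 lists are thus not shown to be separate signals. The endothelial mir-126 fell by 1.25 (SE 0.14), from 20498 to 37464 CPM in normal libraries to 6568 to 18254 CPM in tumors. Markers of smooth muscle and myoepithelium, mir-143 and mir-145, both fell, with sums of 144030 to 256187 CPM in normal and 64715 to 129098 CPM in tumor libraries. All 3 fibroblast markers, 2 of which are among the 5 miRNAs most like mir-22, fell as well, with sums of 12658 to 19882 CPM and 4179 to 8040 CPM. For endothelium, smooth muscle and fibroblasts every tumor library had a lower sum than every normal library, as 9.7% of single tested miRNAs did.

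Other markers were divided. Of the 3 tested leukocyte miRNAs 1 fell, mir-150, with sums of 1681 to 3241 CPM in normal and 1198 to 1868 CPM in tumor libraries. mir-223, known from myeloid cells, was listed at 0 in all libraries. Leukocyte mir-142 had 1048 to 2056 CPM in normal and 964 to 1652 CPM in tumor libraries, so this listed 0 is not read as absence. Of the 3 adipocyte markers 2 fell, mir-365 and mir-378, with sums of 4662 to 25146 CPM and 3046 to 15080 CPM. Of 7 epithelial markers 5 rose, mir-203 fell by 0.70 (SE 0.23) and mir-205, a marker of basal epithelium, had 0.29 (SE 0.29) and was not past the threshold. The epithelial sums were 5689 to 20148 CPM in normal and 19802 to 30351 CPM in tumor libraries. The labelled tissue thus had its epithelial markers at clear levels in all libraries. The part of cell composition in the fall of mir-22 was not tested.

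**Figure D5:**
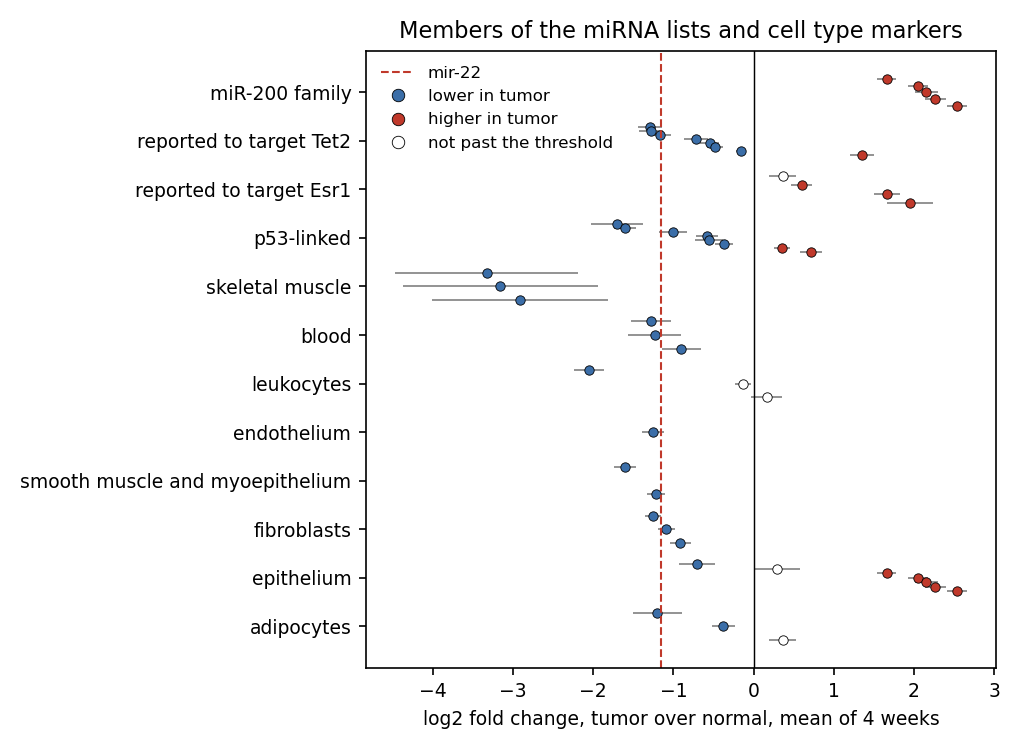
Mean log2 fold change of tumor over normal over the 4 weeks (x axis) for each tested member of the 4 miRNA lists and the 8 marker lists (y axis), with SE bars. Blue and red points were past the threshold, open points were not, and the dashed line is mir-22 at -1.15. All 5 miR-200 members lie to the right of 0 and all muscle, endothelial and fibroblast markers to the left.

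Skeletal muscle markers differed widely between libraries of some groups. The normal library with the most mir-22, the first of week 12 (10813 CPM), also had the highest summed muscle markers (89335 CPM), and the first normal library of week 6 was second in both (9438 and 87491 CPM). In 6 of the 8 groups, including all 4 normal groups, the library highest in muscle markers was the highest in mir-22. Some of these groups held little muscle signal, with 171, 245 and 341 CPM in normal libraries of week 8 and 172, 506 and 665 CPM in tumors of week 12. The share of tested miRNAs with such a match was not computed. The 3 hyperplasia libraries, which had the highest mir-22 of the tumors, held 18075, 8994 and 2196 CPM of muscle markers. Below 1000 CPM of muscle markers, a limit set after seeing the data, there were 7 normal libraries with 5960 to 7773 CPM of mir-22 and 8 tumor libraries with 2600 to 3641 CPM. No hyperplasia library is among them. In a fit of weeks 8, 10 and 12 with only such libraries, 6 normal and 8 tumor, the mean log2 fold change of mir-22 was -1.19 (SE 0.10). Of the normal libraries of week 12, only the third (707 CPM of muscle markers) was in this fit. With all 18 libraries of the same 3 weeks the mean was -1.21 (SE 0.12). As no tumor library reached the level of any normal library, the direction could not have differed in either fit. The part of muscle content in the fall of mir-22 was not tested.

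The closest miRNA entries of the table on chromosome 11 lie upstream of mir-22 on the same strand and belong to another transcript. mir-132, a miRNA induced by CREB and known from neurons, is 289951 bases away and fell by 0.72 (SE 0.15) on the log2 scale (edgeR adjusted p = 2.22e-04). It was scarce, at 30.2 to 76.0 CPM in normal and 21.2 to 35.5 CPM in tumor libraries. mir-212, 290238 bases away, had a log2 fold change of -0.31 (SE 0.16), not past the threshold (edgeR adjusted p = 0.0745), at 7.97 to 26.7 CPM in normal and 9.30 to 17.9 CPM in tumor libraries. The fall of mir-22 was thus of larger size than that of either neighbour, a difference that was not tested.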

How the data were processed

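Small RNA of 24 libraries, 12 tumor and 12 normal, was sequenced. The authors trimmed adaptors, aligned reads of 17 to 27 bases with Bowtie, counted those that cover over 50% of a miRBase miRNA and deposited raw counts per miRNA name without normalization. Labels name mm9 as the genome and the methods mm10, and positions are given here for each build by name. Groups, weeks, replicate numbers and lanes came from the labels, and the study used 3 mice per group. No source says that a number marks a shared litter or day. Deviations of same-numbered tumor and normal libraries correlated over 0.1 in all 3 pairs of weeks 6, 8 and 10, and in 1 of 3 pairs of week 12. This was taken as a reason to fit a replicate block. Some differently numbered libraries correlated as well. At week 10, tumor 1 had 0.58 with normal 2 and 0.49 with its own number, so a true pairing is not established.

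The counts were analysed with edgeR 4.0.16 in R 4.3.3 (TMM, filterByExpr over 8 groups, quasi-likelihood test, Benjamini-Hochberg adjustment over 237 miRNAs, threshold 0.05). Weekly fits used the 6 libraries of a week. Contrasts over weeks used all 24. log2 CPM values had a prior count of 2, and the SE is the log2 fold change divided by the square root of F. Exact permutation tests used numpy 2.4.6 and Wilson intervals scipy 1.17.1 in Python 3.11.15, and plots matplotlib 3.10.9. Sequences were copied from RefSeq (GRCm38.p6). The procedure was tested on simulated data.

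Alternatives were DESeq2 1.42.0 size factors and its Wald test, library sizes only, the classic test of edgeR, all miRNAs unfiltered, a minimum of 10 counts in each library, TMM without the 5 most counted miRNAs, a single fit of all libraries, lane as a covariate, a replicate block, a prior count of 0.5 and each replicate left out in turn. A replicate block for each number within a week, and the fit of libraries under 1000 CPM of muscle markers, were chosen after seeing the data. mir-22, the miRNA lists, the markers and the tests were chosen with earlier results of these data known. Named miRNAs are the 2 highest and 2 lowest of each list past the threshold, the 5 most like mir-22, its neighbours in rank and within 1 Mb, miRNAs that share its seed, and the list members and markers beside a count. mir-138 and the miRNAs steadiest within 1 tissue were named after their values were seen. 1 further miRNA list is not reported here, and mRNA data were not analysed here.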

Additional observations from a re-analysis of the deposited data

How the results depend on the processing

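All 137 alternatives for the mir-22 comparisons kept the side of the threshold of the values in the report, and those with a direction kept it. The tests of variation between weeks have no direction, with 14 alternatives for the difference, 13 for tumor and 13 for normal libraries. Over the alternatives the log2 fold changes of weeks 6, 8, 10 and 12 lay within -1.12 to -0.91, -1.17 to -1.02, -1.24 to -1.17 and -1.48 to -1.25 in this order, and their mean within -1.24 to -1.10. With 1 library left out, the weekly values ranged from -1.08 to -0.85, -1.18 to -0.95, -1.34 to -1.10 and -1.66 to -1.14. Their edgeR adjusted p was at most 0.0269, 0.0443, 0.00662 and 0.0199. For the mean, 1 replicate number of 1 tissue was left out at every week together. The mean then ranged from -1.32 to -1.08, with an edgeR adjusted p of at most 4.16e-07. The change from week 6 to week 12 ranged from -0.46 to -0.13, and from -0.52 to -0.25 with 1 replicate number of 1 tissue left out at every week.

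Tumor and normal libraries that share a number within a week deviated together with correlations of 0.03 to 0.82, over 0.1 in 10 of 12 pairs, and 9 of 12 tumor libraries were closest to their own number. With a replicate block in each weekly fit, the values were -0.97, -1.05, -1.20 and -1.38 (edgeR adjusted p = 0.00518, 0.00257, 5.32e-06 and 0.00305). With the replicate number as a block shared by all weeks, the mean was -1.15 (edgeR adjusted p = 6.75e-09). With a block for each number within a week, the mean was -1.14 (edgeR adjusted p = 3.03e-07). No call for mir-22 changed. In an exact permutation test within pairs, mir-22 was lower in tumor in 12 of 12 pairs (p = 4.88e-04, the smallest of 4096 relabelings). As no tumor library reached the level of any normal library, any other pairing would give the same count and p. The test thus cannot tell whether the pairing matters. The count of miRNAs called at week 8 rose from 84 to 131 with the replicate block. It was 50 without tumor replicate 1. At week 6 the count fell from 139 to 89 without tumor replicate 1 and to 78 without tumor replicate 2, and at week 12 from 120 to 74 without tumor replicate 3, where fewer libraries were fitted.

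The 5 miRNAs most like mir-22 shared 0 names with the first 5 over the 12 tumor libraries alone and 0 with those over the 12 normal libraries alone, where the tumor-normal difference does not enter by construction, and 5 with a prior count of 0.5. Depth does not limit mir-22.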
